A study of Mus musculus with 12 samples.

Results

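The genes described here are 10 genes of the Atf4 stress response and of serine synthesis, *Atf4*, *Ddit3*, *Trib3*, *Chac1*, *Asns*, *Sesn2*, *Psat1*, *Phgdh*, *Psph* and *Shmt2*. They were given as a list drawn up with earlier results of these data known, matched by symbol to the deposited annotation and read by Ensembl identifier, and all 10 were found among the 55141 genes of the count table and among the 16388 genes that passed the filter on low counts over all 12 libraries. Gastruloids, which are clusters of mouse embryonic stem cells grown until they form a body axis, were made from a 129/SVEV line by seeding 300 cells per well. Every group received the same 24 h pulse of the Wnt agonist CHIR 99021 at 3 µM from 48 h and was collected at 120 h after seeding. Gastruloids were embedded in a dextran hydrogel at 72 h (early embedding) or at 96 h (late embedding), with a gel concentration of 1.0 mM (the softer gel) or 1.5 mM (the stiffer gel), which gave 4 groups of 3 libraries. Since all were collected at 120 h, an earlier embedding was also a longer stay in the gel, and the age at embedding and the time spent in the gel cannot be told apart. Each library pooled about 30 gastruloids of a single cell line, so the values are averages over all cell types present, and a change in the number of cells of a type and a change in the RNA per cell cannot be told apart.

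Atf4 is a transcription factor that is translated preferentially when the initiation factor eIF2 is phosphorylated, as happens when amino acids are scarce or when unfolded proteins collect in the endoplasmic reticulum. It binds DNA as a dimer, often with a C/EBP protein, and raises transcription of genes for amino acid synthesis and uptake, together with feedback and cell death genes. Because much of this control acts on translation, the mRNA of *Atf4* itself is a poor gauge of its activity. Serine is made from a glycolytic intermediate in 3 steps, by the products of *Phgdh*, *Psat1* and *Psph*, and mitochondrial Shmt2 then passes a carbon unit from serine to folate.

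The promoter sequences of 3 of the genes are shown because these held the 8 letters TGATGNAA, the core of the composite C/EBP-ATF response element, on either strand. RefSeq sequences (GRCm38.p6) were searched from 250 bases before to 50 bases after each gene start, and all 10 genes had such a window. Among the 32851 windows of all genes, 3.97% held these letters, against *Chac1*, *Trib3* and *Asns* among the 10. The match is in capitals below, and each sequence runs 5′ to 3′ along its gene, with 250 bases before the start of *Chac1* (chr2:119350992-119351241, plus strand) and of *Asns* (chr6:7693210-7693459, minus strand), and 30 bases around the match of *Trib3* (chr2:152344028-152344057, minus strand).
Chac1: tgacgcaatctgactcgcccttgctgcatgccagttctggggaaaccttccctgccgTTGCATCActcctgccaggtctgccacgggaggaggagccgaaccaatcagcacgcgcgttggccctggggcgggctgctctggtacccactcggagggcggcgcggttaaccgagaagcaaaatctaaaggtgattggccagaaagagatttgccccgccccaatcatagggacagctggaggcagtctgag
Trib3: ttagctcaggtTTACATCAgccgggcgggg
Asns: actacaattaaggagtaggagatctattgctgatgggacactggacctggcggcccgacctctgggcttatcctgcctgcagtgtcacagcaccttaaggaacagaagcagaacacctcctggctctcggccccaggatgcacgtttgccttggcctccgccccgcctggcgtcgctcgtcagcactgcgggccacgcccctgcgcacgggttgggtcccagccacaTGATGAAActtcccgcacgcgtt

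The match of *Chac1* began 193 bases before the gene start and lay on the opposite strand, as did that of *Trib3*, which began at base 15 after the start, while that of *Asns* began 23 bases before the start on the strand of the gene. The cyclic AMP response element TGACGTCA, the same on both strands, was in 1.79% of all windows and in 0 of the 10. A match of letters is not a measured binding site, and its absence holds only for this window.

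Total counts per library ran from 23011791 to 27609422. Replicate 1 of the 72 h, 1.5 mM group stood apart from the other libraries of its group, with 6.12% of its counts on an rRNA-like gene (CT010467.1) against 0.207% to 4.21% in the other 11 libraries. It gave the highest level of its group for 8 of the 10 genes. This was not particular to it, since in each other group a single library did so for 7, 8 or 9 genes. The libraries held markers of several cell types, none at 0. For 4 of 7 marker lists (somite, cardiac and anterior mesoderm, posterior and presomitic, naive pluripotency) the summed levels did not overlap between embedding times, and for 3 (neural tube, endoderm, endothelium) they did. Within these 3 lists single markers went both ways over both gels, by edgeR at an adjusted p below 0.05. After early embedding 2 of the 4 neural tube markers were higher and 2 lower. In the endoderm and endothelium lists, of 3 markers each, 1 was higher and 1 lower. Among all genes 31.1% were changed. The 4 somite markers summed to between 107 and 247 CPM (counts scaled to the total of the library) after early embedding and between 372 and 598 CPM after late embedding, and the 4 cardiac and anterior mesoderm markers to between 282 and 535 CPM and between 51.4 and 203 CPM. Of the 4 posterior and presomitic markers tested, *T* carried the sum. Its mean was 251 and 203.5 CPM in 1.0 and 1.5 mM gels after early embedding, and 111.5 and 75.6 CPM after late embedding. *Cdx2*, *Tbx6* and *Nkx1-2* were lower on average after early embedding in each gel. The part of cell type makeup in the results below was not tested.

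The genes covered a wide range of levels. Per length, in the authors' FPKM averaged over all 12 libraries, *Atf4* (131 FPKM, from 113 to 150) stood above the rest. *Psat1* (58.2 FPKM, the aminotransferase of serine synthesis), *Shmt2* (47.4 FPKM) and *Asns* (41.9 FPKM, asparagine synthetase) followed with overlapping ranges. *Phgdh* (23.2 FPKM, the dehydrogenase that opens serine synthesis) and *Sesn2* (20.2 FPKM, a sestrin that restrains growth signaling when leucine is low) also overlapped each other. *Chac1* (2.82 FPKM, an enzyme that degrades glutathione) and *Trib3* (2.72 FPKM, a pseudokinase that feeds back on Atf4) were lowest, with ranges of 0.954 to 6.13 and 1.15 to 5.03 FPKM that overlapped almost entirely. *Ddit3* was listed at 0 FPKM in all 12 libraries although it had 83 to 207 counts in each, and *Psph* was listed at 0 FPKM in the 3 libraries of the 72 h, 1.5 mM group although it had at least 554 counts in every library. The values below are therefore CPM after TMM scaling, which compare libraries for a gene and not genes with each other.

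**Figure D1:**
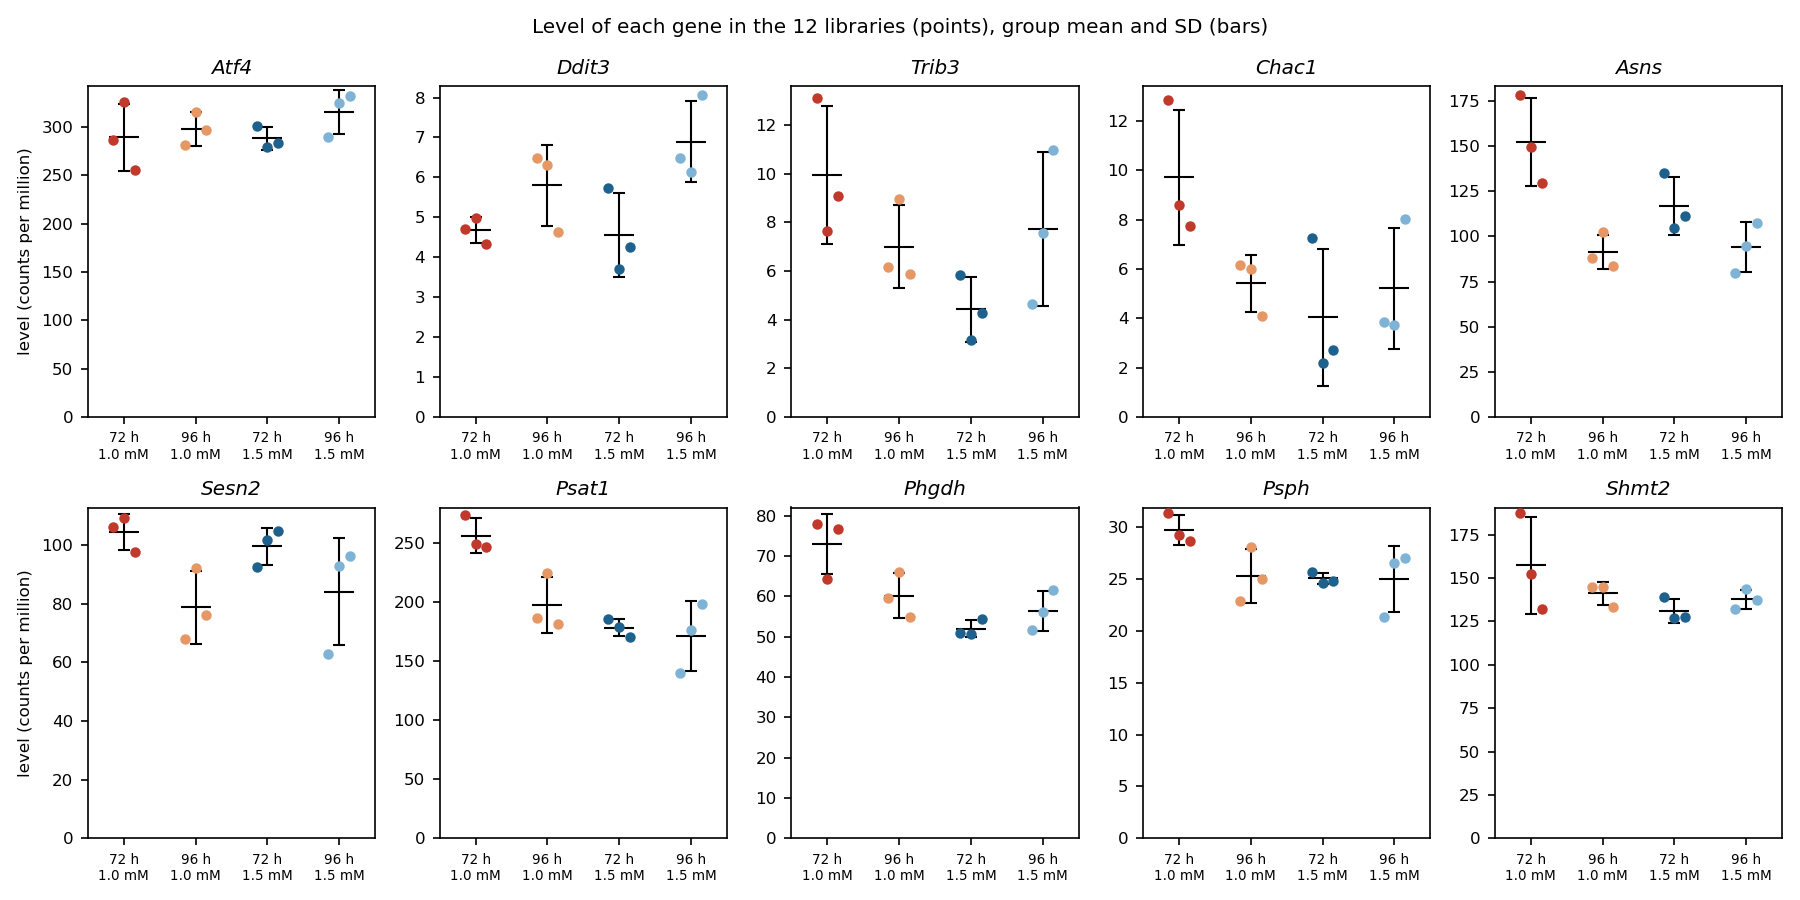
Level of each of the 10 genes in CPM (vertical axes, from 0) in the 4 groups of embedding time and gel concentration (horizontal axes), with a point for each of the 3 libraries of a group and bars for the mean and SD. *Trib3*, *Chac1*, *Psat1*, *Phgdh* and *Psph* lie higher in all 3 libraries of the 72 h, 1.0 mM group than in any of the 72 h, 1.5 mM group, and *Atf4* spans only 256 to 333 CPM.

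The first question was whether the time of embedding altered these genes in the softer gel. There, 4 of the 10 genes were higher after early than after late embedding, and none was lower, where changed means a Benjamini-Hochberg adjusted p below 0.05 over all 15763 genes tested with edgeR's quasi-likelihood test. Among all genes, 9.24% were changed in this comparison. The median log2FC (log2 fold change, early minus late) of the 10 genes was 0.33, against -0.01 over all genes. The early libraries of the softer gel are also a side of the gel comparison described further on, in which *Trib3* had been seen to differ before the list was drawn up, so the comparisons share values.

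*Asns* carried the firmest difference. Its level was 179, 150 and 130 CPM in the 3 early libraries and 88, 102.2 and 83.9 CPM in the late ones, and the groups did not overlap. The log2FC was 0.74 (SE 0.118, edgeR adjusted p = 0.00297), a 1.68-fold higher level, and the gene stayed changed without any single library, with an adjusted p of at most 0.0202 in edgeR.

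*Chac1* had 12.8, 8.58 and 7.74 CPM after early embedding and 6.17, 5.98 and 4.08 CPM after late embedding, again without overlap. Its log2FC was 0.85 (SE 0.225, edgeR adjusted p = 0.0364). The highest library, replicate 1 at 72 h, carried part of this, since without it the log2FC was 0.60 and the edgeR adjusted p 0.112.

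*Psat1* had 273, 249 and 246 CPM in the early libraries and 186, 224 and 181 CPM in the late ones, with a log2FC of 0.38 (SE 0.0956, edgeR adjusted p = 0.0292). *Sesn2* had 106, 109 and 97.7 CPM against 68, 92.4 and 76.2 CPM, with a log2FC of 0.41 (SE 0.109, edgeR adjusted p = 0.0368). Both kept the groups apart. The count of 4 changed genes became 1 without replicate 1 at 72 h, without replicate 1 at 96 h or without replicate 3 at 96 h, where 1129, 1010 and 731 of all genes were changed in place of 1457.

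The other genes of serine synthesis lay in the same direction without passing the test. *Phgdh* was at 73.0 ± 7.50 CPM (SD, n = 3) in the early libraries and 60.2 ± 5.55 CPM in the late ones, with a log2FC of 0.28 (SE 0.10, edgeR adjusted p = 0.110). *Psph*, the phosphatase of the last step, had 31.4, 29.3 and 28.6 CPM against 22.8, 28.1 and 25.0 CPM, which did not overlap, with a log2FC of 0.24 (SE 0.108, edgeR adjusted p = 0.212). *Shmt2* differed by 0.16 (SE 0.114, edgeR adjusted p = 0.439), and *Trib3* by 0.51 (SE 0.225, edgeR adjusted p = 0.204), both with overlapping groups. In all, 5 of the 10 genes were higher in every 72 h library than in every 96 h library of the 1.0 mM gels, where 14.6% of all genes were.

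*Atf4* mRNA was level in this comparison, at 286, 326 and 256 CPM against 281, 316 and 297 CPM. Its log2FC was -0.04, with a 95% interval of -0.25 to 0.18. *Ddit3*, which encodes the cell death factor CHOP, was at 4.67 ± 0.329 CPM (SD, n = 3) in the early libraries and 5.804 ± 1.02 CPM in the late ones, and its log2FC of -0.31 (SE 0.184, edgeR adjusted p = 0.360) pointed away from the other targets.

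The same question was put for the stiffer gel. Here 0 of the 10 genes were changed between embedding times by edgeR, where 19.3% of all 15683 genes tested were. At an unadjusted p below 0.05 the test picked 3, *Ddit3*, *Trib3* and *Asns*, and DESeq2 called the same 3 after adjustment while limma-voom called 0. Among all genes 35.1% had such a p and DESeq2 called 20.9%, so the share of the 10 was near that of all genes. Of all 15683 genes limma-voom called 2982. The median log2FC of the 10 genes was -0.10.

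*Ddit3* had 5.73, 3.70 and 4.26 CPM in the early libraries and 6.49, 6.14 and 8.06 CPM in the late ones. It was the sole gene of the 10 that was lower in every early library, as 20.0% of all genes were. Its log2FC was -0.60 (SE 0.197, edgeR adjusted p = 0.0605). *Trib3* had 5.82, 3.16 and 4.26 CPM against 4.65, 7.55 and 10.98 CPM, with a log2FC of -0.81 (SE 0.315, edgeR adjusted p = 0.0988). *Chac1* had 7.24, 2.18 and 2.72 CPM against 3.86, 3.73 and 8.02 CPM, and in both groups a single library lay at or above 7 CPM while the other two lay below 4.

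Without replicate 1 of the 72 h, 1.5 mM group, the library with the large rRNA-like share, 3 genes passed the test as lower after early embedding, where 25.5% of all genes were changed. These were *Ddit3* (log2FC -0.80, edgeR adjusted p = 0.0104), *Trib3* (-1.06, edgeR adjusted p = 0.0327) and *Chac1* (-1.09, edgeR adjusted p = 0.0392). Without replicate 1 of the 96 h, 1.5 mM group 1 gene passed, beside 15.9% of all genes, *Trib3* (log2FC -1.08, edgeR adjusted p = 0.0356). *Asns* was the only one of the 10 with a positive interval here, at 135, 105 and 111 CPM against 79.9, 94.9 and 108 CPM, with a log2FC of 0.31 (95% interval 0.03 to 0.59, edgeR adjusted p = 0.104). *Psat1*, *Phgdh*, *Psph* and *Shmt2* had log2FC values between -0.12 and 0.05, and *Atf4* one of -0.14 (SE 0.0678, edgeR adjusted p = 0.184).

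Over both gels together, with gel concentration in the model, 3 of the 10 genes were changed between embedding times, where 31.1% of all 16388 genes were. *Asns* (log2FC 0.53, edgeR adjusted p = 0.00181) and *Sesn2* (0.33, edgeR adjusted p = 0.0193) were higher after early embedding, and *Ddit3* (-0.45, edgeR adjusted p = 0.0189) was lower. *Sesn2* had 92.5, 101.7 and 105 CPM in the early libraries of the stiffer gel and 63.1, 93.1 and 96.3 CPM in the late ones. The 3 genes of 10 are a share close to that of all genes.

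**Figure D2:**
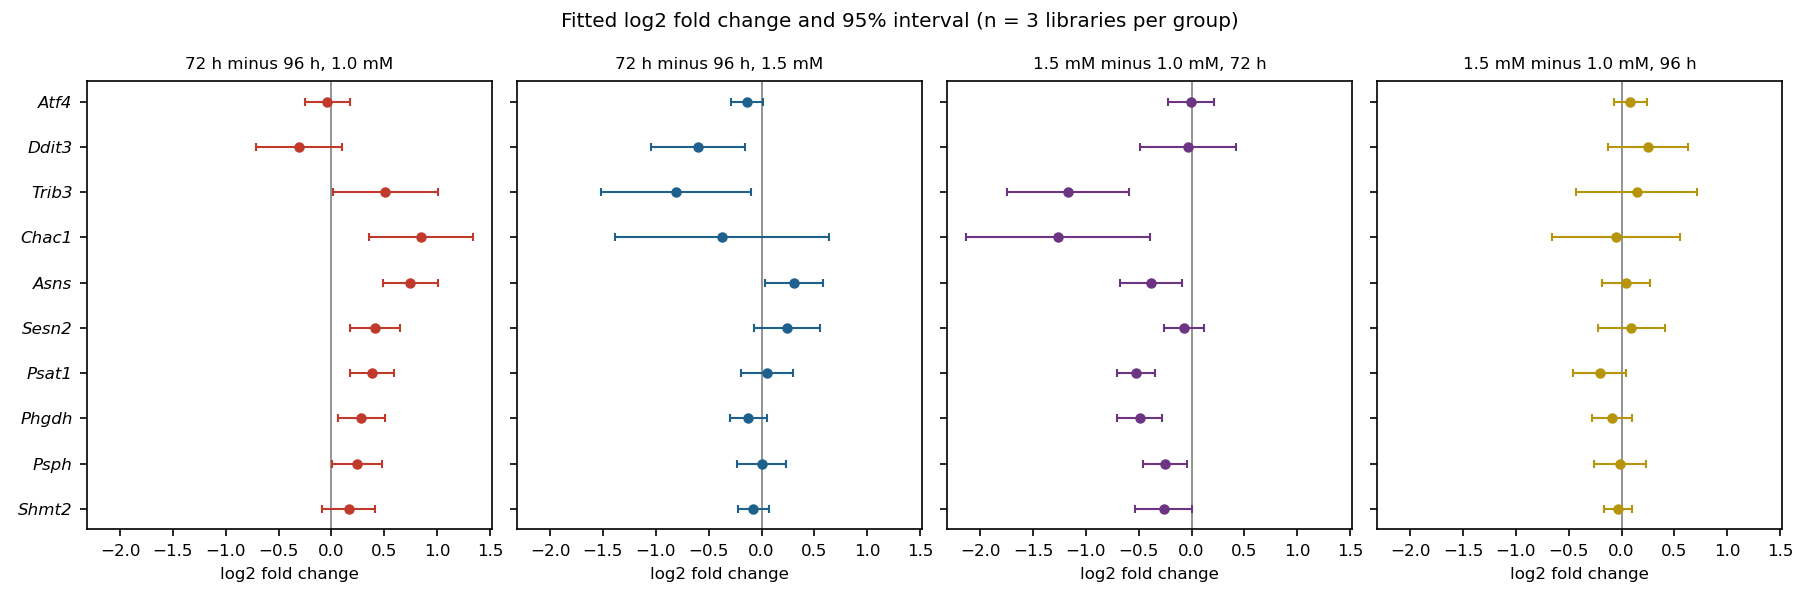
Fitted log2FC (horizontal axes) of each gene (vertical axis) in the 4 pairwise comparisons, with 95% intervals from edgeR and 3 libraries per group. Differences in 1.0 mM gels between 72 h and 96 h reach 0.85 for *Chac1*, those between gels at 72 h reach -1.27 for *Chac1*, and all intervals between gels at 96 h include 0.

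The next question was whether gel concentration altered these genes after early embedding. This is the comparison in which *Trib3* had been singled out before, and the exact values behind each choice are not stated, so it is given as a description without a test. At 72 h all 10 genes had a negative fitted log2FC from 1.0 mM to 1.5 mM gels, with a median of -0.32 against 0.00 over all genes. Those of *Atf4* and *Ddit3* turned positive when replicate 2 of the 1.0 mM gels or replicate 2 or 3 of the 1.5 mM gels was left out. By edgeR 0 of the 10 and 0% of all 15563 genes tested were changed, with 1074 genes at an unadjusted p below 0.05. DESeq2 called 14 genes, 3 of them from the list, and limma-voom called 0. Since *Trib3* had been singled out in this comparison, these calls are no test of the list.

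The largest fitted differences were those of *Trib3* and *Chac1*. *Trib3* had 13.1, 7.64 and 9.07 CPM in 1.0 mM gels and 5.82, 3.16 and 4.26 CPM in 1.5 mM gels, with a fitted log2FC of -1.17 (SE 0.260). *Chac1* went from 12.8, 8.58 and 7.74 CPM to 7.24, 2.18 and 2.72 CPM, with a log2FC of -1.27 (SE 0.392), or -1.99 without replicate 1 of the 1.5 mM gels. Neither gene's groups overlapped, but for *Chac1* the margin was small, between 7.24 and 7.74 CPM.

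All 3 enzymes of serine synthesis had lower levels in every library of the stiffer gel. *Psat1* was at 273, 249 and 246 CPM in 1.0 mM gels and 185, 179 and 171 CPM in 1.5 mM gels, with a log2FC of -0.52 (SE 0.0792). *Phgdh* was at 77.9, 64.4 and 76.8 CPM against 50.9, 50.6 and 54.4 CPM, with a log2FC of -0.49 (SE 0.0963). *Psph* was at 31.4, 29.3 and 28.6 CPM against 25.7, 24.7 and 24.9 CPM, with a log2FC of -0.25 (SE 0.0924). With *Trib3* and *Chac1* this made 5 of the 10 genes lower in every 1.5 mM library, beside 5.11% of all genes. *Trib3* had been singled out in this comparison, so the share of all genes is no test of that count.

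*Asns* (log2FC -0.38) and *Shmt2* (-0.27) were lower on average with overlapping groups. *Sesn2*, *Ddit3* and *Atf4* had log2FC values of -0.07, -0.04 and -0.01. *Atf4* mRNA was at 302, 280 and 284 CPM in 1.5 mM gels, inside the range of the 1.0 mM gels.

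After late embedding, with libraries that the comparison at 72 h did not use, no gene of the list passed the test between gels. By edgeR 0 of the 10 and 0% of all 15861 genes were changed, with 1578 of all genes and 0 of the 10 at an unadjusted p below 0.05. DESeq2 and limma-voom also called 0 of the 10, where DESeq2 called 86 of 15732 genes and limma-voom 2 of 15861. No gene had groups apart, while 7.46% of all genes were higher and 8.08% lower in every 1.5 mM library. The fitted log2FC values ran from -0.21 (*Psat1*, 95% interval -0.46 to 0.05) to 0.25 (*Ddit3*, -0.13 to 0.63).

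*Psat1* had 139, 176 and 198 CPM in 1.5 mM gels and 186, 224 and 181 CPM in 1.0 mM gels. *Phgdh* had 51.6, 56.2 and 61.5 CPM against 59.5, 66.0 and 55 CPM (interval -0.28 to 0.10). *Trib3* had 4.65, 7.55 and 10.98 CPM against 6.17, 8.95 and 5.88 CPM (interval -0.43 to 0.72), and *Chac1* had an interval of -0.66 to 0.55. For each of these genes the groups overlapped and the interval spanned both signs. Whether these gel differences were unlike those at 72 h is the interaction given next.

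Whether the effect of embedding time depended on the gel is the interaction of both factors, the time difference in 1.5 mM gels minus that in 1.0 mM gels. It contains the libraries of the gel comparison at 72 h and is also given as a description. All 10 values were negative, from -0.09 for *Atf4* to -1.31 (SE 0.424) for *Trib3* and -1.21 (SE 0.551) for *Chac1*, with -0.40 for *Phgdh*, -0.43 for *Asns* and -0.32 for *Psat1*. By edgeR 0 of the 10 and 0% of all 16388 genes passed, with 708 genes at an unadjusted p below 0.05, 2 genes called by DESeq2 and 0 by limma-voom. A difference between the gels in the effect of embedding time was thus not shown for any gene of the list. These calls share the libraries in which *Trib3* had been singled out, so they too are a description. Across both embedding times, gel concentration left 0 of the 10 changed, beside 0.0305% of all genes.

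On average over the libraries of a group, 8 of the 10 genes were highest in the 72 h, 1.0 mM group, and 6 were lowest in the 72 h, 1.5 mM group. *Atf4* and *Ddit3* were the exceptions, both highest in the 96 h, 1.5 mM group. The share of all genes with this order was not counted. Both 72 h groups are sides of the comparison in which *Trib3* had been singled out, so the order is a description.

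**Figure D3:**
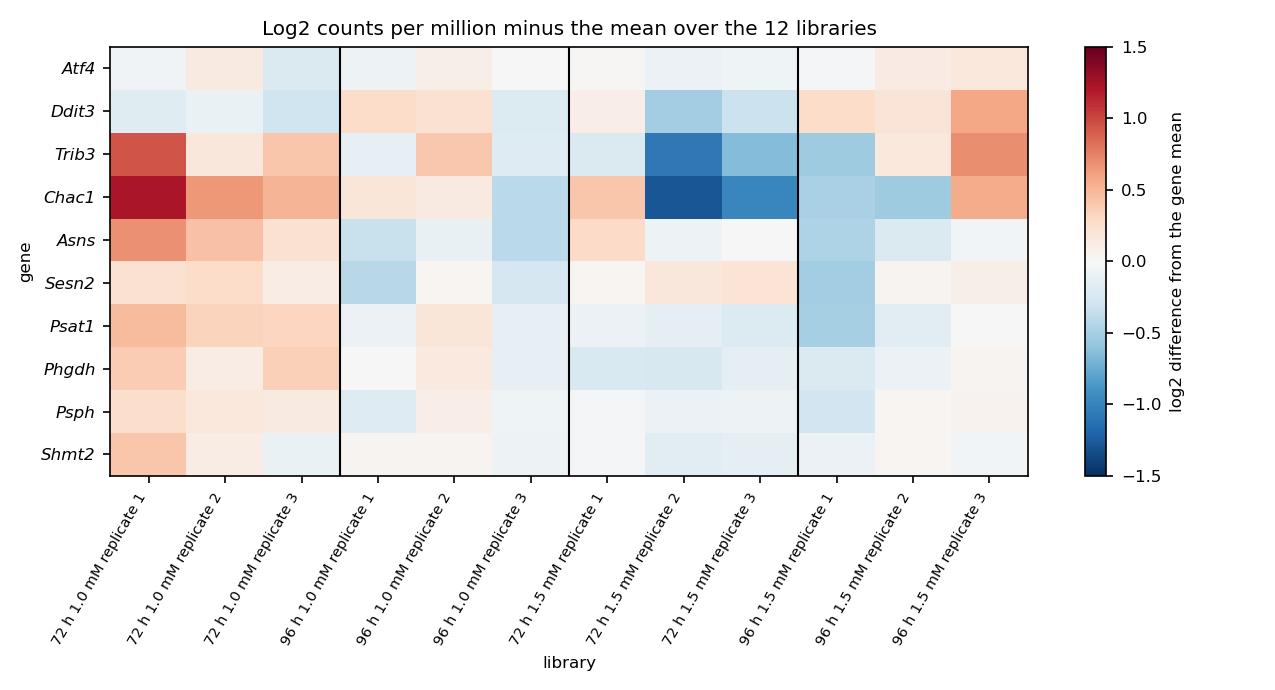
Log2 CPM of each gene (rows) in each library (columns, grouped by embedding time and gel) minus the mean of that gene over the 12 libraries. Red is above and blue below the mean; *Chac1* and *Trib3* vary most and *Atf4* least, and replicate 1 of the 72 h, 1.0 mM group is the reddest library.

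The libraries of a group also differed from each other in a shared way. After subtraction of group means from log2 CPM, 44 of the 45 pairs of genes had a positive Pearson's r over the 12 libraries, with a median r of 0.55 (median Spearman's rho 0.62), and the median was 0.59 without the 2 libraries farthest from the median of the first gene of a pair. These values share library, depth and RNA, and are a description. The median r of each of the 10 with all 16388 genes lay between -0.03 and 0.01. How closely genes of other pathways or of like levels go together was not counted, so this median is no test of the 45 pairs. *Psat1* and *Psph* had r = 0.92 (rho 0.83), *Sesn2* and *Psph* r = 0.91 (rho 0.80), *Trib3* and *Asns* r = 0.90 (rho 0.84), and *Ddit3* and *Chac1* r = 0.89 (rho 0.91). *Atf4* and *Phgdh* gave the sole negative r, -0.08.

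Single libraries showed this plainly. In replicate 2 of the 96 h, 1.0 mM group all 10 genes lay above their group mean, and in replicate 3 of that group and in replicate 1 of the 96 h, 1.5 mM group 0 did. In replicate 3 of the 96 h, 1.5 mM group 9 genes were the highest of their group, among them *Trib3* at 10.98 CPM against 4.65 and 7.55 CPM. Between replicates of a group, the highest and lowest library differed by up to 3.32-fold for *Chac1* (72 h, 1.5 mM) and 2.36-fold for *Trib3* (96 h, 1.5 mM), while their highest and lowest group means differed 2.40-fold and 2.25-fold. For *Atf4* these values were 1.27-fold and 1.095-fold.

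**Figure D4:**
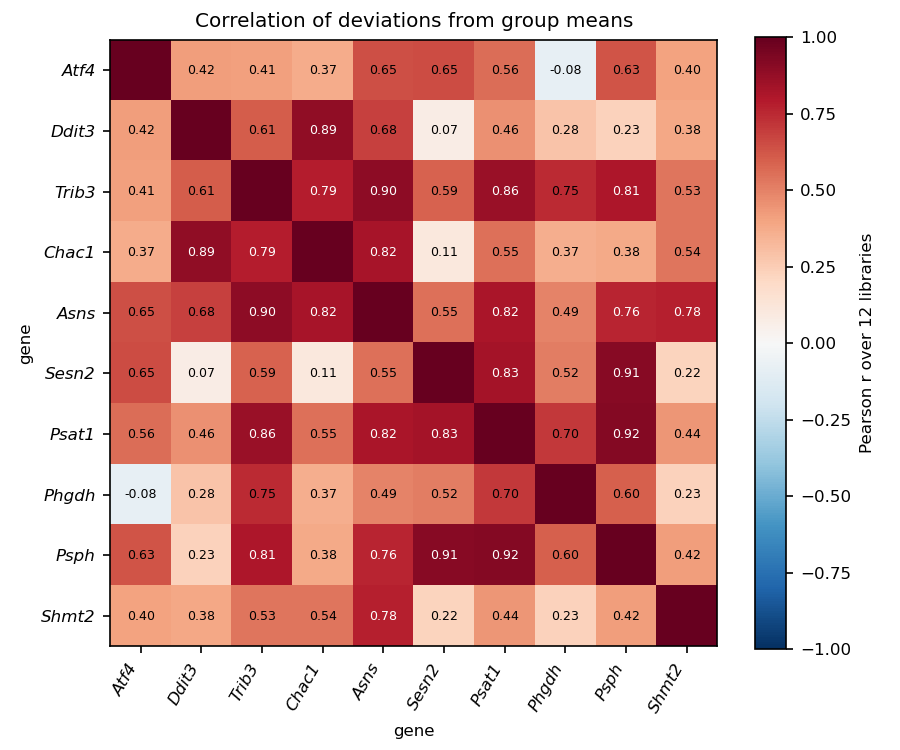
Pearson's r between the 10 genes (both axes) over 12 libraries, of log2 CPM after subtraction of the group mean. Red is positive and blue negative; the highest value is that of *Psat1* with *Psph* at 0.92, and *Atf4* with *Phgdh* is the sole negative one at -0.08.

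The genes most like the members were sought by the same measure among 11334 other genes, each with 100 or more counts on average. For *Trib3* they were *Mthfd2* (r = 0.93), *Slc7a5* (0.91) and *Ppp1r13b* (0.89). For *Chac1* they were *Cldnd1* (0.93), *Slc1a4* (0.91) and *Tmx1* (0.90). For *Asns* they were *Thap7* (0.94), *Mthfd2* (0.94) and *Herpud1* (0.92), and for *Psat1* *Abhd8* (0.91), *Tspyl3* (0.91) and *Nars* (0.91). These are the highest of many values over 12 libraries.

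Other genes of the pathway were read from lists set up beside the members. In 1.0 mM gels 5.97% of all genes were higher and 3.27% lower after early embedding, and in 1.5 mM gels 10.4% and 8.98%, against which the counts below can be read. Of 8 amino acid transporters tested in 1.0 mM gels, 2 were higher after early embedding and 0 lower, *Slc7a5* (log2FC 0.58, edgeR adjusted p = 0.0104), a leucine carrier, and *Slc1a4* (0.54, edgeR adjusted p = 0.00880), a carrier of serine and alanine. The median over the 8 was 0.27, against -0.01 for all genes. In the stiffer gel 2 of the 8 were lower and 0 higher, *Slc7a3* (-0.78, edgeR adjusted p = 0.0297) and *Slc6a9* (-0.44, edgeR adjusted p = 0.0268). At 72 h, 7 of the 8 had a negative log2FC from the softer to the stiffer gel, with a median of -0.40, and 0 passed the test by edgeR. At an unadjusted p below 0.05 there were 6 lower and 1 higher, the glutamine carrier *Slc38a2* (0.26), beside 6.90% of all genes. The list was chosen with earlier results of these data known, so the share of all genes is no test of that count. The value for *Slc7a3*, a carrier of basic amino acids was -1.23, and both were named after their values were seen.

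Of 14 genes of folate one-carbon metabolism and glycine cleavage, 3 were higher and 1 lower after early embedding in the softer gel. The mitochondrial enzymes *Aldh1l2* (1.99, edgeR adjusted p = 0.0157) and *Mthfd2* (0.60, edgeR adjusted p = 0.0167), which act next to Shmt2, and *Gldc* (0.33, edgeR adjusted p = 0.0368), named after its values were seen, were higher, and cytosolic *Shmt1* (-0.40, edgeR adjusted p = 0.0137) was lower. For the stiffer gel *Mthfd1l* (0.29, edgeR adjusted p = 0.0271) was higher and *Shmt1* (-0.42, edgeR adjusted p = 0.00455) and *Gcsh* (-0.26, edgeR adjusted p = 0.0155) were lower. *Aldh1l2*, followed further after its values were seen, had a log2FC of 0.15 there, and of -1.33 between gels at 72 h. Its level was low, at 0.817 to 2.63 CPM in the early and 0.345 to 0.522 CPM in the late libraries of the softer gel.

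Of 14 other Atf4 targets and partner factors tested, *Vldlr* (1.06, edgeR adjusted p = 0.00837), a lipoprotein receptor, and *Gpt2* (0.54, edgeR adjusted p = 0.0160), an alanine aminotransferase, were higher after early embedding in the softer gel. With the stiffer gel *Vldlr* (0.61, edgeR adjusted p = 0.0237) was higher and *Atf3* (-0.98, edgeR adjusted p = 0.0318), a partner factor induced by stress, was lower. *Fgf21* and *Gdf15* were too low to be tested over the 12 libraries. Of 20 cytosolic aminoacyl-tRNA synthetases, 0 were changed in 1.0 mM gels by edgeR (1 at an unadjusted p below 0.05) and 2 were higher in 1.5 mM gels, *Dars* (0.23) and *Farsb* (0.22).

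Upstream of Atf4, 0 of 14 genes of the eIF2 kinases and of eIF2 phosphorylation control were changed between embedding times in 1.0 mM gels by edgeR (1 at an unadjusted p below 0.05), and 2 were higher after early embedding in the stiffer gel. These were *Impact* (0.27, edgeR adjusted p = 0.0224), an inhibitor of the amino acid sensing kinase, and *Ppp1r15b* (0.20, edgeR adjusted p = 0.0324), a subunit of the phosphatase that acts on eIF2. From the softer to the stiffer gel at 72 h these lists did not share a direction. The median log2FC was -0.30 for the other Atf4 targets (11 of 14 negative) and -0.06 for the folate genes (10 of 14 negative). For the synthetases it was 0.03 (8 of 20 negative), and for the eIF2 list 0.07 (2 of 14 negative).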

How the data were processed

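Bulk poly-A RNA-seq was analysed in 12 libraries (4 groups of 3), grouped by the labels. The authors trimmed reads with cutadapt 4.4, aligned them to mm10 with STAR 2.7.10b and deposited raw counts per gene, and deposited FPKM values from Cufflinks 2.2.1.3. The count table's name refers to HTSeq, and the strand setting of the counting is not given in the sources used here. The authors' table of DESeq2 fold changes and adjusted p-values was not used. The libraries were stated to be biological replicates.

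The 36 mitochondrial genes were left out. Counts were filtered with filterByExpr (minimum count 10, minimum total 15), scaled by TMM and tested with edgeR 4.0.16 (glmQLFit and glmQLFTest, R 4.3.3), with p-values adjusted over all genes tested. Pairwise comparisons used the libraries of 2 groups, and the comparisons across both factors used all 12. Changes are signed as 72 h minus 96 h and 1.5 mM minus 1.0 mM. Alternatives were DESeq2 1.42.0, limma-voom (limma 3.58.1), limma on log2(FPKM + 1), RLE scaling, other filters, mitochondrial genes kept, a single fit of all libraries, the replicate number as a block, and each library left out. The script was tested on simulated data.

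At these depths the spread between replicates limits precision, more so for *Chac1* (49 to 303 counts per library), *Ddit3* (83 to 207) and *Trib3* (71 to 309). Without the strand setting, *Ddit3*, *Psph* and *Shmt2*, which overlap *Mars*, *Cct6a* and *Ndufa4l2* on the other strand by 68, 452 and 32 bases, may share reads with them. *Sesn2* overlaps *Gm12981* by 6089 bases on the same strand, and these may share reads under any strand setting. The named genes are all 10 members, at most 3 changed genes with the largest change per other list and comparison, and, for *Trib3*, *Chac1*, *Asns* and *Psat1*, the 3 genes of highest r. The members and lists were chosen with earlier results of these data known.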

Additional observations from a re-analysis of the deposited data

How the results depend on the processing

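For the 10 genes in the comparisons of embedding time and of gels at 96 h, 587 of 646 values under the alternatives kept direction and side of the threshold, 17 lost a call, 17 gained one and 25 turned sign. In the 3 comparisons given as a description, 12 of 547 values turned sign and 9 moved by more than 1 SE. In 1.0 mM gels, the 4 genes changed between embedding times became 5 without a filter, 0 with a log2 fold change above 1 also required, 1 with FPKM values, 2 in a single fit of all libraries, and 1 to 4 without 1 library. In 1.5 mM gels, 0 became 3 with DESeq2 or without a filter, 1 with FPKM values, a single fit or the replicate block, and 0 to 3 without 1 library. Of all genes there, DESeq2 called 20.9%, and 12.5% were changed without a filter. The shares were 10.4% with FPKM values, 16.9% in a single fit and 24.8% with the replicate block. For gels at 72 h, 0 became 3 with DESeq2 or the replicate block, 1 with FPKM values (*Psph*, listed at 0 in 1 group) and 5 without a filter. Of all genes, DESeq2 called 0.0975%, and 0.276% were changed with the replicate block, 0.0161% with FPKM values and 1.13% without a filter. *Trib3* had been singled out in this comparison, so these shares are no test of the counts. Across both gels, 3 changed genes became 0 with the fold change required and 4 without a filter or without replicate 3 of the 72 h, 1.5 mM group. Without a filter 16.6% of all genes were changed, and without that library 26.7%. With the fold change required, 763 of 16388 genes were changed. Across both embedding times, 0 became 1 with DESeq2 and 4 without a filter, and for the interaction 0 became 1 with FPKM values and 3 without a filter. Of all genes, DESeq2 called 1.46% for gel concentration across both times, and 1.63% were changed without a filter. For the interaction the shares were 0.0321% with FPKM values and 0.758% without a filter. Counts between gels at 96 h stayed at 0 of the 10, where 333 of 29248 genes were changed without a filter and 289 of 15861 with the replicate block. The cause of these moves was not tested. The letters TGATGNAA were in 1 promoter, in place of 3, in the 150 bases before the start.

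Signs turned for *Psph* with FPKM values (-3.49 in 1.5 mM gels and -1.64 across both gels, where the zeros enter) and with a stricter filter (-0.003457 in 1.5 mM gels), and for *Asns* between gels at 96 h with FPKM values (-0.009679). Without 1 library, values turned sign within these ranges. Between embedding times in 1.0 mM gels, *Atf4* ran from -0.1316 to 0.04344. In 1.5 mM gels *Psph* ran from -0.105 to 0.06157, *Psat1* from -0.07826 to 0.1705 and *Chac1* from -1.09 to 0.08526. Between gels at 96 h *Chac1* ran from -0.5087 to 0.138, *Sesn2* from -0.01532 to 0.2782, *Psph* from -0.08712 to 0.09902, *Asns* from -0.06349 to 0.1628, *Shmt2* from -0.0759 to 0.007953 and *Trib3* from -0.2007 to 0.4209. Across both gels *Shmt2* ran from -0.03345 to 0.08334 and *Trib3* from -0.3079 to 0.09099. Between gels at 72 h *Atf4* ran from -0.08674 to 0.0851 and *Ddit3* from -0.239 to 0.09439, and for gels across both embedding times *Sesn2* ran from -0.04412 to 0.08065, with -0.03115 from FPKM values.

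The replicate numbers are not stated to mark a shared batch. Deviations of same-numbered libraries correlated at 0.04 to 0.31 over 18 pairs, 13 above 0.1, and 16 correlated best with their own number, which is a hint from the data only. With the replicate block the genes changed became 1 in 1.5 mM gels and 3 for gels at 72 h, beside 24.8% and 0.276% of all genes.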

Other observations

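Of 17 genes of the unfolded protein response of the endoplasmic reticulum, 3 were higher after early embedding (72 h) in the softer gel and 9 in the stiffer gel, and 0 were lower in either. Of all genes 5.97% were higher in 1.0 mM gels and 10.4% in 1.5 mM gels, and whether the counts differ between gels was not tested. In 1.0 mM gels these were the chaperone partner *Dnajc3* (log2 fold change 0.38, edgeR adjusted p = 0.0469), the disulfide isomerase *Pdia4* (0.33, edgeR adjusted p = 0.04995) and the transcription factor *Xbp1* (0.29, edgeR adjusted p = 0.0469). In 1.5 mM gels the largest differences were those of the stress sensor *Ern1* (0.72, edgeR adjusted p = 0.00775), the chaperone *Hsp90b1* (0.60, edgeR adjusted p = 0.00736) and *Dnajc3* (0.45, edgeR adjusted p = 0.00753). The medians of the 17 were 0.20 and 0.29, against -0.01 for all genes in both gels. In the stiffer gel, where these 9 were higher, 0 of the 10 Atf4 and serine synthesis genes were changed by edgeR (3 at an unadjusted p below 0.05). Between gels at 72 h the median of the 17 was 0.02.

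Of 6 heat shock genes tested, 0 were changed between embedding times in 1.0 mM gels by edgeR (1 at an unadjusted p below 0.05), and in 1.5 mM gels *Hsph1* (0.29, edgeR adjusted p = 0.0324) was higher and *Hspb1* (-0.97, edgeR adjusted p = 0.0241) lower after early embedding. Of 7 mitochondrial chaperones and proteases, *Clpp* (-0.34, edgeR adjusted p = 0.0353) was lower in 1.5 mM gels. Of 8 immediate-early genes, *Junb* (-0.62, edgeR adjusted p = 0.0100) and *Ier2* (-0.23, edgeR adjusted p = 0.0245) were lower after early embedding in the stiffer gel. All 8 had a negative log2 fold change from the softer to the stiffer gel at both embedding times, with medians of -0.81 and -1.16. By edgeR 0 of them passed the test in either pairwise comparison (5 and 7 at an unadjusted p below 0.05). Across both embedding times *Egr1* (-2.17, edgeR adjusted p = 0.0257) passed as lower in the stiffer gel, 1 of 5 genes changed among the 16388 tested, and 7 of the 8 had an unadjusted p below 0.05, beside 12.7% of all genes. This list, too, was chosen with earlier results of these data known, so that share is no test of the count.

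The listing of *Ddit3* and *Psph* at 0 FPKM was not particular to these genes. Of 11344 genes averaging 100 or more counts, 219 (1.93%) were listed at 0 FPKM in all 12 libraries, and 188 in some but not all. Of these, 3 were at 0 in all libraries of exactly 1 group and in no other library, as *Psph* was. A comparison made from the FPKM values alone would read *Psph* as absent after early embedding in the stiffer gel, where its counts gave 25.7, 24.7 and 24.9 CPM.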
